A study of Mus musculus with 21 samples.

Results

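The miR-379 to miR-410 cluster is a run of miRNA hairpins on mouse chromosome 12, in the imprinted Dlk1-Dio3 domain. Its members were chosen by name, as the mature miRNAs of 35 hairpins from Mir379 to Mir3072, in either arm. The rule took 69 of the 1647 miRNAs in the count table. Of the 35 hairpins, 34 were listed with both arms (5p and 3p, the mature products of either side of a hairpin), and Mir376c was listed with its 3p arm alone. miRNAs had been sequenced in 21 libraries from untreated wild-type (WT) mice of both sexes. The tissues were the cochlea, the hearing organ of the inner ear, and the superior olivary complex (SOC), a group of auditory brainstem nuclei. Cochlear sensory epithelium came from C57BL/6JOlaHsd mice at embryonic day 16 (E16, 2 libraries), birth (P0, 4 libraries) and postnatal day 16 (P16, 4 libraries). SOC tissue came from C57Bl6/J mice at E16 (4 libraries), P0 (4 libraries) and P16 (3 libraries). Every sample pooled tissue of several animals, so each library is an average over them. Strain, RNA isolation kit and library kit all differed between the organs (Direct-zol and SMARTer smRNA-Seq for the cochlea, innuPREP and TruSeq Small RNA for the SOC). Levels were therefore compared within an organ, and the difference between organs was tested only for the change with age.

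miRNAs are short RNAs that guide Argonaute proteins to partly complementary messenger RNAs, mainly through the seed, bases 2 to 8 of the mature strand. In the Dlk1-Dio3 domain the noncoding RNAs, this cluster among them, are made from the maternally inherited chromosome, and the cluster is known for its expression in embryonic tissue, placenta and brain. Some of its members act in neurons: miR-134 restrains the growth of dendritic spines, and miR-329, miR-381 and miR-485 have been linked to dendrites and synapses.

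All 35 hairpins lay on the plus strand of GRCm38 between chr12:109709060-109747960, a span of 38901 bases. In the GENCODE annotation the first 22 hairpins, Mir379 to Mir544, lay upstream of the long noncoding RNA gene Mirg (chr12:109729764-109749460). The other 13, Mir382 to Mir3072, lay within Mirg, in its exons except for Mir154, Mir496a, Mir541 and Mir409, which were intronic. The noncoding RNA genes Meg3 and Rian end upstream of Mir379 on the same strand, at 109571726 and 109661716. RefSeq (GRCm38.p6) held a mature sequence for 65 of the 69 members. They carried 62 distinct seeds.

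Among the 65 members with a sequence, only 3 seeds were shared by a pair, and none of the 3 occurred in any other RefSeq mouse miRNA. miR-376c-3p, miR-487b-3p, miR-485-5p and miR-539-3p had no sequence there, so whether they share a seed with another member was not examined. The pairs are shown to mark where members could share targets, with the seed in capitals and each sequence written 5′ to 3′.
miR-379-5p: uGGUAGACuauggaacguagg
miR-1193-5p: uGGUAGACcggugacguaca
miR-379-3p: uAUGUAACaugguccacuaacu
miR-411-3p: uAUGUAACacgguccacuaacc
miR-494-5p: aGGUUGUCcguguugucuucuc
miR-410-5p: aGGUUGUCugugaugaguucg

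The members with the most counts, those with the largest changes and those with roles in neurons are shown next, because the results turn on them. The seed is again in capitals. miR-411-5p differs from miR-379-5p in its seed although their hairpins are neighbours.
miR-411-5p: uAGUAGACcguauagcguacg
miR-323-5p: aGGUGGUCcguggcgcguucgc
miR-323-3p: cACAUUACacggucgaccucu
miR-329-3p: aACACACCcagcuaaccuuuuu
miR-494-3p: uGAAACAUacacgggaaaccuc
miR-1193-3p: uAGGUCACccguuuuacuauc
miR-666-5p: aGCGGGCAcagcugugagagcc
miR-666-3p: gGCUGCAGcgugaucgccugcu
miR-495-3p: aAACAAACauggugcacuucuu
miR-667-3p: uGACACCUgccacccagcccaag
miR-376b-3p: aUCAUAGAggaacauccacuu
miR-300-3p: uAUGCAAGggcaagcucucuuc
miR-381-3p: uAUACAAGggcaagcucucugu
miR-382-5p: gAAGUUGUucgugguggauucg
miR-134-5p: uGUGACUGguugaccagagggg
miR-134-3p: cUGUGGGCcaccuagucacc
miR-541-5p: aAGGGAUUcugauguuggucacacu
miR-409-3p: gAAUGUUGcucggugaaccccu
miR-412-5p: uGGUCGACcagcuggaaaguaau
miR-369-5p: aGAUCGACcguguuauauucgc
miR-369-3p: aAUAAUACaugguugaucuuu
miR-410-3p: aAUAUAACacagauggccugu

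Several of these sequences are close to each other. miR-379-3p and miR-411-3p differ by 2 edits, miR-300-3p and miR-381-3p by 3, and miR-376a-3p and miR-376b-3p by 3. How the counting treated reads that match such pairs is not given in the sources used here, so their individual values are uncertain to that extent. By base composition, 27 of the 65 sequences begin with U, 26 with A, 9 with G and 3 with C, and the median GC content was 47.62%.

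The libraries differed greatly in depth. Cochlea libraries held 124400 to 447419 counts and SOC libraries 8309669 to 18053698, so that 3 counts, used here as the floor of detection in a library, were worth 5.21 to 23.3 CPM in the cochlea and 0.136 to 0.349 CPM in the SOC. CPM are here counts scaled to a common library size after TMM normalisation, and the floor is on that same scale. Intervals and floors cover counting error only. SOC libraries fell into 3 sets that cut across the time points, and these sets were defined from 2 miRNAs outside the cluster and known from earlier results of these data. Set A, with between 17.2 and 19.6% of its counts on miR-99b-5p, consisted of replicates 2 and 3 at both E16 and P0. Set C, with just 0.277 to 0.322% on miR-191-5p, consisted of P0 replicate 4 and P16 replicates 2 and 3. Set B held the other 4 libraries (E16 replicates 1 and 4, P0 replicate 1 and P16 replicate 1) and was the only set present at all 3 ages. SOC results are therefore given also with the set as a covariate, and what the sets are is not stated by the labels. The tissue labels were checked against marker miRNAs. Neuronal markers such as miR-124-3p and miR-9-5p summed to 27010 to 118800 CPM in the SOC and to 744.8 to 3488 CPM in the cochlea. Markers of epithelium and sensory cells, such as miR-200 and miR-183 family members, summed to 19180 to 78420 CPM in the cochlea, but they also reached 85960 to 166400 CPM in the SOC at E16, before lying at 4448 to 28900 CPM at P0 and 571 to 3556 CPM at P16. In tissue of mixed cells, fewer cells of a type and less RNA per cell cannot be told apart, and this holds for every change below.

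Together the 69 members took 0.704 to 2.47% of the counts in cochlear libraries and 5.47 to 11.8% in SOC libraries, which were made with different kits. In the cochlea they took 2.24% and 2.47% of counts in the 2 E16 libraries. At P0 they took 1.10%, 1.05%, 0.949% and 1.24%, and at P16 0.868%, 0.704%, 1.79% and 1.59%. On this scale of raw counts both E16 libraries lay above all 8 later ones. The E16 mean was 2.36% ± 0.162 (SD, n = 2), against 1.08% ± 0.120 (n = 4) at P0 and 1.24% ± 0.531 (n = 4) at P16. With 2 E16 libraries an exact two-sided permutation test cannot go below p = 0.133, which is the value that both comparisons with E16 gave (adjusted over the 6 comparisons, p = 0.2). P0 and P16 overlapped (exact permutation p = 0.571). After TMM scaling the order depended on the age compared. The summed level was 16840 and 19190 CPM at E16, 10640, 10570, 11080 and 13390 CPM at P0, and 8830, 10870, 17100 and 14710 CPM at P16, so that P0 stayed below E16 while P16 replicate 3 lay above 1 of the E16 libraries (exact permutation p = 0.267, adjusted p = 0.32). The 95% Wilson interval of each of these shares was at most 0.139 percentage points wide, so that depth did not limit them.

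The SOC shares were highest at P0. The members took 9.13%, 7.11%, 6.20% and 8.33% of counts at E16, 11.8%, 9.22%, 9.17% and 10.2% at P0, and 5.47%, 7.76% and 7.27% at P16. P0 did not overlap with either age, while E16 and P16 overlapped. The P0 mean of 10.1% ± 1.25 (SD, n = 4) compared with 7.69% ± 1.30 (n = 4) at E16 (exact permutation p = 0.0286, the smallest possible, adjusted p = 0.171) and with 6.83% ± 1.21 (n = 3) at P16 (exact permutation p = 0.0571, the smallest possible, adjusted p = 0.171). Neither was under 0.05 after adjustment over the 6 comparisons, but with these group sizes no adjusted p could be. The adjusted values therefore cannot decide whether the ages differ. P16 against E16 gave an exact permutation p of 0.4. Among the 4 set B libraries alone, the order was the same: 9.13% and 8.33% at E16, 11.8% at P0 and 5.47% at P16. Which ages overlapped changed with the scaling. The TMM-scaled sums were 96600, 79110, 72490 and 72990 CPM at E16, 94920, 89220, 93160 and 106300 CPM at P0, and 66010, 68410 and 69250 CPM at P16. On that scale P0 and E16 overlapped (exact permutation p = 0.114), and P16 lay below both (exact permutation p = 0.0571 each, the smallest possible, adjusted p = 0.171).

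**Figure D1:**
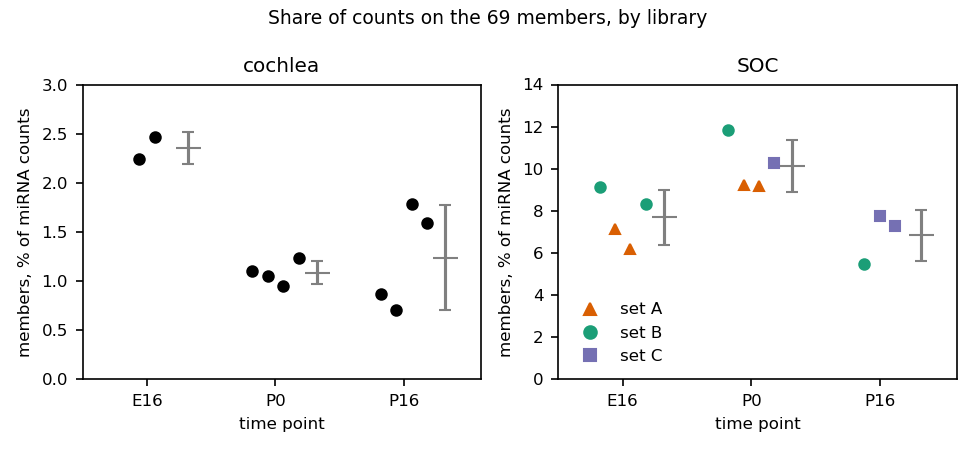
Share of all miRNA counts on the 69 members (y axis, percent) by time point (x axis) in the cochlea (left) and SOC (right), 1 point a library, grey bars for mean and SD. Both cochlear E16 libraries, at 2.24% and 2.47%, lie above every later cochlear library, and the 4 SOC P0 libraries lie between 9.17% and 11.8%, above all SOC E16 and P16 libraries.

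The counts were concentrated on few members, and in the cochlea increasingly so with age. The 4 most counted members took 43.6 and 45.5% of the cluster's counts in the cochlea at E16, 60.9 to 70.9% at P0 and 71.0 to 85.8% at P16. miR-323-3p and miR-409-3p led the E16 libraries, and miR-382-5p led 7 of the 8 later ones. In the SOC the 4 most counted members took 74.95 to 86.2%. miR-410-3p led in all 8 libraries of sets A and B, and miR-411-5p led in the 3 libraries of set C. Between 38 and 58 members had at least 1 count in a cochlear library and 62 to 68 in a SOC library.

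Change over time was tested for each miRNA with edgeR's quasi-likelihood test within an organ. A miRNA was called when its Benjamini-Hochberg adjusted p (FDR) was under 0.05, its fold change exceeded 1.5 and the replicates of the groups did not overlap. Of the members, 59 passed the filter on low counts in the cochlea, 62 in the SOC and 57 in both. The 10 that did not pass in the cochlea were both arms of miR-758 and the 5p arms of miR-329, miR-494, miR-679, miR-1193, miR-300, miR-487b, miR-544 and miR-668. The 7 that did not pass in the SOC were both arms of miR-758, miR-494-5p, miR-1193-5p, miR-376b-5p, miR-487b-5p and miR-382-3p.

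From E16 to P0 the cluster fell in the cochlea. Of the 59 tested members 21 fell, 2 rose and 36 were not called, whereas 16.6% of all 896 tested miRNAs fell and 7.81% rose (24.4% called either way). The median log2 fold change was -1.39 over the members and 0 over all miRNAs. The members called lower were miR-1193-3p, miR-154-3p, miR-300-3p, miR-369-3p, miR-376b-3p, miR-376c-3p, miR-381-3p, miR-487b-3p, miR-494-3p, miR-495-3p, miR-543-3p and both arms of miR-299a, miR-376a, miR-379, miR-380 and miR-411. Of these, miR-154-3p, miR-299a-3p, miR-376a-5p and miR-379-3p had no count at all in the 4 P0 libraries, and their E16 levels were so close to the floor that no fold change is given. In this list miR-154-3p, miR-299a-3p, miR-376a-3p, miR-379-3p and miR-494-3p passed the filter through E16 alone. So did miR-377-3p, miR-382-3p, miR-539-3p, miR-541-3p and miR-544-3p, which were not called. A fall from E16 was thus built into their selection, and they are part of the count and the median above. How many of all tested miRNAs passed in this way is not given. The members called higher were miR-323-5p and miR-667-3p. This contrast rests on 2 E16 libraries. Without E16 replicate 1, 14 members were called, and without E16 replicate 2, 9. The share of all miRNAs called in these fits is not given, so whether members lost more calls than the rest is not shown.

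Among the members that fell most were miR-376b-3p, miR-376c-3p and miR-369-3p. miR-376c-3p was at 1032 and 840.5 CPM at E16, at 37.44, 14.61, 12.84 and 49.84 CPM at P0, and at 117.3, 54.47, 86.3 and 14.87 CPM at P16. All 8 later libraries lay far below both E16 values. The log2 fold change was -4.996 ± 0.52 (SE) at P0 (FDR = 6.93e-19) and -3.73 ± 0.49 at P16 (FDR = 1.29e-12). miR-369-3p went from 609.9 and 783.2 CPM at E16 to 21.39, 29.22, 32.11 and 11.08 CPM at P0 and 45.91, 38.91, 46.47 and 0 CPM at P16. Its log2 fold changes against E16 were -4.87 ± 0.56 (FDR = 3.61e-16) and -4.35 ± 0.54 (FDR = 9.08e-14). miR-376b-3p, whose hairpin lies next to that of miR-376c, was at 343.1 and 138.9 CPM at E16 and at 0 to 6.421 CPM at P0, where no library had more than 3 counts. The ratio of its summed E16 to P0 level was 53.1 (95% counting interval 17.9 to 259). In each of these 3 members both E16 libraries stood apart from all later ones.

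miR-495-3p and the miR-379/miR-411 hairpin pair at the 5′ end of the cluster moved with them. miR-495-3p was at 618.1 and 1035 CPM at E16, at 19.48 to 89.89 CPM at P0 and at 44.6 to 139.4 CPM at P16, with log2 fold changes against E16 of -3.70 ± 0.49 (FDR = 4.15e-12) and -3.30 ± 0.48 (FDR = 2.81e-10). miR-411-5p fell from 201.5 and 300.4 CPM to 0 to 38.96 CPM at P0 and 10.2 to 52.03 CPM at P16, with a log2 fold change of -3.79 ± 0.66 at P0 (FDR = 2.05e-07) and -3.11 ± 0.64 at P16 (FDR = 1.16e-05). miR-379-5p fell and then had no call: it was at 1607 and 1702 CPM at E16, at 780.9, 360.4, 250.4 and 343.4 CPM at P0 (log2 fold change -1.93 ± 0.40, FDR = 2.64e-05), and at 1097, 350.2, 1799 and 1360 CPM at P16, where it overlapped E16.

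The 2 members that rose at P0 also lay above their E16 values at P16, except miR-323-5p in P16 replicate 3. miR-667-3p was at 675.3 and 732.9 CPM at E16, at 1679, 2119, 2055 and 2564 CPM at P0 and at 816.2, 4607, 2523 and 2416 CPM at P16. Its log2 fold change was 1.58 ± 0.44 at P0 (FDR = 0.00253) and 1.88 ± 0.44 at P16 (FDR = 0.000186). Without E16 replicate 1 or 2 the P0 call was lost (FDR = 0.0919 and 0.071), and with library totals in place of TMM the P16 call was lost because the groups were then no longer apart. miR-323-5p was at 8.169 and 13.89 CPM at E16 and 68.18 to 96.27 CPM at P0 (log2 fold change 2.83 ± 0.81, FDR = 0.00372), and its call was also lost without either E16 library (FDR = 0.0986 and 0.0522). Its 4 P16 values of 40.81, 116.7, 6.638 and 59.47 CPM overlapped E16.

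From E16 to P16, 23 of the 59 members fell and 4 rose, against 18.6% and 10.9% of all tested miRNAs (29.6% either way), and the median was -1.46 over the members against -0.087 over all. From P0 to P16 only 3 members were called, all lower, against 6.58% of all miRNAs lower and 3.91% higher (10.5% either way). The 3 were miR-323-3p, miR-409-3p and miR-487b-3p, and as 5.085% of the tested members they were a smaller share than that background. miR-323-3p was at 2336 and 2417 CPM at E16 and still at 1161, 1344, 1400 and 2365 CPM at P0, but at 229.5, 466.9, 285.4 and 185.8 CPM at P16. Its log2 fold change from P0 to P16 was -2.43 ± 0.36 (FDR = 1.23e-09), and no P16 library reached the lowest P0 value. miR-409-3p ran in parallel, at 2099 and 2497 CPM, then 936, 1213, 1669 and 1623 CPM, then 198.9, 365.7, 292.1 and 193.3 CPM, with a log2 fold change from P0 to P16 of -2.38 ± 0.36 (FDR = 3.49e-09). miR-487b-3p stepped down at both ages, from 386.7 and 519.3 CPM to 126.6 to 193.8 CPM and then to 22.3 to 70.03 CPM, with log2 fold changes of -1.45 ± 0.48 from E16 to P0 (FDR = 0.0144) and -1.75 ± 0.48 from P0 to P16 (FDR = 0.0032). Its first step was not called without E16 replicate 1 (FDR = 0.0619) or 2 (FDR = 0.217).

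Of the members with known roles in neurons, miR-134-5p, miR-329-3p and miR-381-3p were lower at P16 than at E16 in the cochlea, and miR-485-5p was higher. miR-134-5p, the regulator of dendritic spines, was at 727 and 875.3 CPM at E16, 443 to 620.4 CPM at P0 and 142.8, 202.3, 497.9 and 327.1 CPM at P16 (log2 fold change from E16 to P16 -1.46 ± 0.43, FDR = 0.00326). Without E16 replicate 2 this FDR was 0.0537. miR-329-3p was at 710.7 and 731.1 CPM at E16 and at 81.77 to 443.6 CPM at P16 (-1.53 ± 0.43, FDR = 0.00247). miR-381-3p, the member that the study singles out, was low in the cochlea throughout, at 57.18 and 55.57 CPM at E16, 0 to 11.08 CPM at P0 and 0 to 7.782 CPM at P16. Its later libraries held at most 3 counts each, and the ratio of its E16 to P16 level was 11.4 (95% counting interval 3.70 to 57.2). Its calls were lost without either E16 library, with FDR = 0.123 and 0.128 at P0 and 0.0669 and 0.0622 at P16.

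The 4 members higher at P16 than at E16 in the cochlea were miR-382-5p, miR-485-5p, miR-666-5p and miR-667-3p. miR-382-5p, the first hairpin within Mirg, was at 1626 and 1754 CPM at E16, 2706, 2308, 2350 and 2941 CPM at P0 and 4025, 2202, 8736 and 8511 CPM at P16. It thus rose above the E16 range in all 8 later libraries, and 2 P16 libraries stood far above the others. Its log2 fold change from E16 to P16 was 1.80 ± 0.44 (FDR = 0.000287). miR-485-5p went from 8.169 and 33 CPM to 81.77 to 122.4 CPM (2.31 ± 0.74, FDR = 0.00825), and without E16 replicate 1 its FDR was 0.225. miR-666-5p had no count at E16 and 20.4, 54.47, 46.47 and 29.73 CPM at P16, at least 5.65-fold higher against the mean floor of 3 counts in the E16 libraries. Without E16 replicate 2 its FDR was 0.0573. With library totals in place of TMM, which moved the median of all miRNAs by -0.38 at P0 and -0.50 at P16 (log2), miR-666-5p alone of the 4 was called higher. Under that scaling 29 members were lower and 2 higher at P0, against 21.8% and 4.02% of all miRNAs (25.8% either way), and 26 lower and 1 higher at P16, against 23.7% and 7.25% (30.9%), so lower calls made up 96.3% of the members called at P16 in place of 85.2%.

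**Figure D2:**
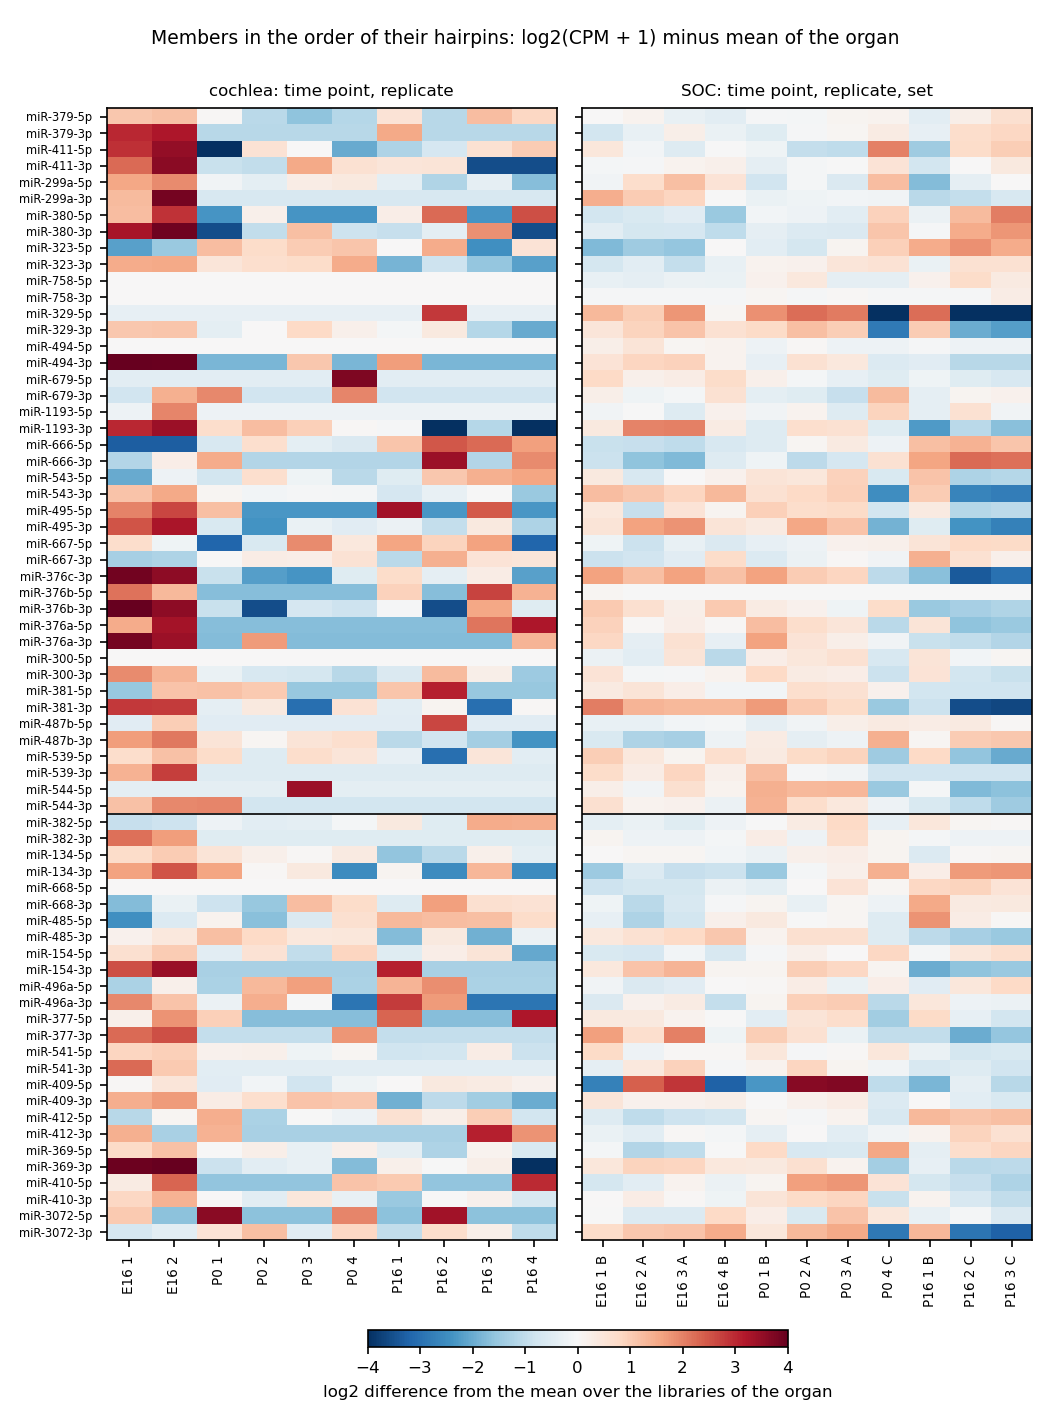
Level of each of the 69 members (rows, in the order of their hairpins along the chromosome) in every library (columns, by time point, replicate and SOC set), as log2(CPM + 1) minus the mean over the libraries of the organ, red above and blue below. The line marks the start of Mirg after the first 22 hairpins. In the cochlea both E16 columns are red for most members above the line, and in the SOC the 3 set C columns differ from the rest.

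In the cochlea the early fall was not even along the locus. At P0, 19 of the 34 tested members upstream of Mirg were lower than at E16 (median log2 fold change -2.38), against 2 of the 25 tested members within Mirg (median -0.76). Those 2 were miR-154-3p and miR-369-3p. By arm, 16 of 34 tested 3p members were lower (median -2.33) and 5 of 25 5p members (median -0.63). The unevenness along the locus was seen in both arms, with 14 of 21 3p and 5 of 13 5p members lower upstream of Mirg, and 2 of 13 and 0 of 12 within it. Among members with a mean of at least 50 CPM the counts were 9 of 14 upstream and 1 of 12 within Mirg. At P16 the counts were less far apart, with 17 of 34 members lower upstream and 6 of 25 within Mirg, and 10 of 14 and 6 of 12 among those of at least 50 CPM. The difference at P16 was in the 3p arm, with 15 of 21 lower upstream and 3 of 13 within Mirg. In the 5p arm 2 of 13 and 3 of 12 were lower. Of all tested miRNAs 16.6% were lower at P0 and 18.6% at P16. These splits are descriptions of the members and carry no test. On both sides of the border of Mirg they include members that passed the filter through E16 alone, whose fall was built in. They were not set against all tested miRNAs of either arm, so a difference by arm need not be particular to the cluster. Library totals in place of TMM left 23 of 34 and 6 of 25 lower at P0, against 21.8% of all tested miRNAs.

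**Figure D3:**
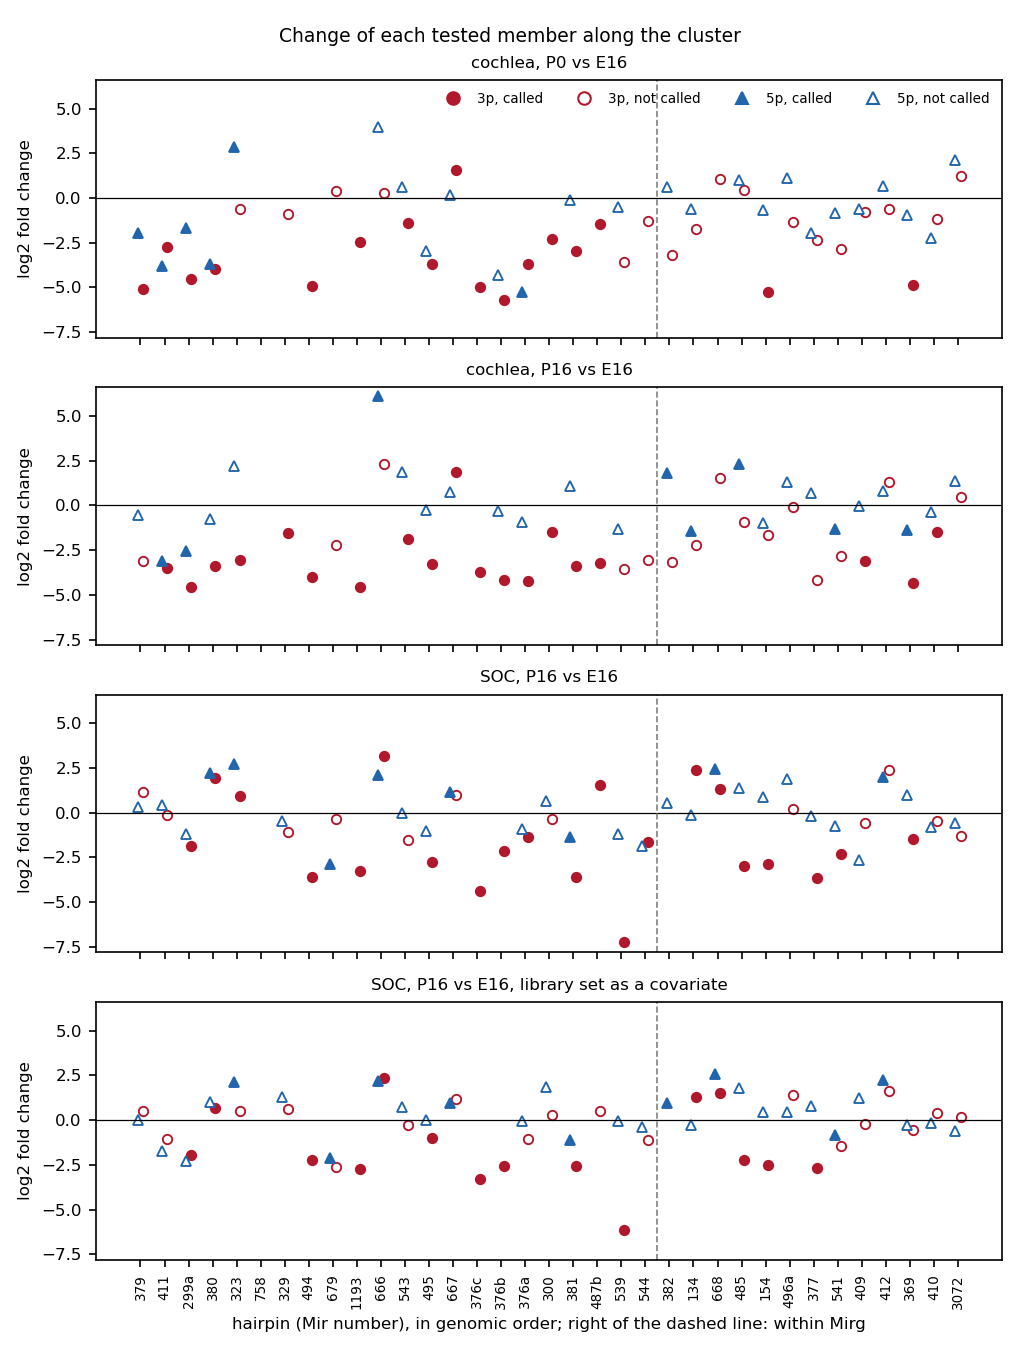
Log2 fold change of each tested member (y axis) by hairpin in genomic order (x axis), circles for 3p and triangles for 5p, filled where called; hairpins right of the dashed line lie within Mirg. At P0 in the cochlea all filled points below 0 fall left of the line except for miR-154-3p and miR-369-3p, and in the SOC called members rise and fall on both sides of it.

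Measured cell markers also changed with age in the cochlea, some in the direction of the cluster and some not. Summed neuronal markers were at 2980 to 3488 CPM at E16, 744.8 to 1358 CPM at P0 and 1102 to 1580 CPM at P16, in the same direction as the cluster and with all 5 of 5 detected at each age. Blood markers were at 1465 to 1638, 208.6 to 267.9 and 453.4 to 749.9 CPM, and of the 4 in the table miR-451a and miR-144-3p were at 0 in all P0 and P16 libraries. Markers of mesenchyme and cartilage were at 54010 to 56850, 69370 to 97790 and 42470 to 75190 CPM, epithelial and sensory markers at 67060 to 78420, 40400 to 45800 and 19180 to 43970 CPM, muscle markers at 473.8 to 548.8, 218.3 to 477.3 and 1097 to 4295 CPM, and oligodendrocyte markers (2 in the table) at 13.9 to 32.7, 6.42 to 66.5 and 295.7 to 511.2 CPM. Of the 5 muscle markers in the table, miR-133a-3p and miR-208b-3p were at 0 at every age and miR-499-5p at E16 and P0. The oligodendrocyte marker miR-219a-2-3p was at 0 at P0. The part of these cells in the changes of the cluster was not tested.

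In the SOC the cluster did not shift as a block between E16 and P0. edgeR called 0 of the 62 tested members, against 2.45% of all 694 tested miRNAs higher and 4.18% lower (6.63% either way), and 11 members had an unadjusted p under 0.05 (9 higher, 2 lower). DESeq2 called 4 members (3 higher, 1 lower), against 12.1% of all miRNAs. With the library set as a covariate edgeR called 3, against 5.62% of all miRNAs higher and 8.21% lower (13.8% either way). They were miR-323-3p and miR-666-5p, which rose, and miR-299a-3p, which fell. Leaving out set C gave 5 members, against 14.5% of all miRNAs, and leaving out set A gave 0 members and 0% of all miRNAs. Set B alone also gave 0, with a single P0 library, which is too little to speak for or against a call. miR-323-3p was at 554.6, 665.7, 466.6 and 732.3 CPM at E16 and 997.4, 1006, 1256 and 1344 CPM at P0, without overlap (log2 fold change with the covariate 0.78 ± 0.21, FDR = 0.0129). miR-666-5p was at 759.1 to 964.1 CPM at E16 and 1068 to 1961 CPM at P0 (0.81 ± 0.22, FDR = 0.0122). The median over the members was 0.27 against 0.17 over all miRNAs.

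From E16 to P16 the SOC cluster split. Of the 62 tested members, 12 rose, 17 fell and 33 were not called, against 21.2% higher and 20% lower of all tested miRNAs (41.2% either way), so that the 46.8% of members called was close to the background. With a term for the set 10 rose and 14 fell, against 20.3% and 20.2% of all miRNAs (40.5% either way), and the median over the members moved from -0.48 to -0.015. Set B, with 2 E16 and 1 P16 libraries, gave 3 higher and 5 lower by itself, against 17.6% of all miRNAs. Leaving out set A left 7 members called, against 15.8%, and leaving out set C 18, against 32%. By arm, 6 of 33 tested 3p members rose and 15 fell, whereas 6 of 29 5p members rose and 2 fell. With the covariate these counts were 4 and 11 for the 3p and 6 and 3 for the 5p members. Upstream of Mirg 8 of 37 rose and 12 fell, and within it 4 of 25 rose and 5 fell. As in the cochlea, these splits carry no test and were not set against all tested miRNAs of either arm.

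miR-666 gave the clearest rise, in both of its arms. miR-666-5p was at 827.3, 799.9, 759.1 and 964.1 CPM at E16, 1068, 1603, 1961 and 1315 CPM at P0 and 3507, 4028 and 3306 CPM at P16. The 3 ages did not overlap, and its log2 fold change from E16 to P16 was 2.11 ± 0.34 (FDR = 0.00064), or 2.204 ± 0.27 with the covariate (FDR = 1.14e-05). miR-666-3p was at 123.9, 73.21, 66.25 and 160.6 CPM at E16, 201.7, 108.9, 142.8 and 348.2 CPM at P0 and 677.6, 1107 and 1049 CPM at P16, with a log2 fold change of 3.16 ± 0.50 (FDR = 0.000532), or 2.33 ± 0.25 with the covariate. Within set B alone the log2 differences from E16 to P16 were 1.97 for the 5p and 2.25 for the 3p arm.

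miR-412-5p, miR-323-5p and miR-134-3p also rose. miR-412-5p was at 45.36 to 63.83 CPM at E16, 58.96 to 100.9 CPM at P0 and 197.8 to 230 CPM at P16 (log2 fold change 1.99 ± 0.33, FDR = 0.000824; with the covariate 2.27 ± 0.26). miR-323-5p was at 3.927, 5.246, 4.797 and 15.98 CPM at E16 and at 46.18, 58.94 and 46.23 CPM at P16 (2.75 ± 0.58, FDR = 0.00322). miR-134-3p was at 8.967 to 17.59 CPM at E16 and 31.6, 87.46 and 92.56 CPM at P16, the 2 higher values being those of set C, and its log2 fold change of 2.38 ± 0.62 (FDR = 0.00967) was 1.31 ± 0.35 with the covariate (FDR = 0.00649). Its partner strand miR-134-5p was not called, at 820.2 to 1447 CPM in all 11 libraries. miR-382-5p was called higher with the covariate only (0.95 ± 0.26, FDR = 0.00712). Called higher in either fit were also miR-380-3p, miR-667-5p, miR-668-3p and miR-668-5p, while miR-380-5p, miR-323-3p and miR-487b-3p were called without the covariate only. miR-487b-3p, for example, was at 1478 and 1553 CPM in the P16 libraries of set C but at 779.2 CPM in that of set B, and its log2 fold change of 1.56 ± 0.50 was 0.52 ± 0.23 with the covariate (FDR = 0.0732). Its call was also lost without E16 replicate 2 or 3 or P16 replicate 2 or 3 (FDR = 0.0608 to 0.0727).

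Among the members that fell in the SOC, miR-376b-3p and miR-376c-3p kept their calls from E16 to P16 under every alternative that tested them (26 and 25 alternatives). miR-376b-3p was at 195.8, 147.2, 109.6 and 196.1 CPM at E16, 116.9, 104.9, 82.73 and 157.8 CPM at P0 and 32.83, 36.47 and 39.91 CPM at P16. The P16 libraries of sets B and C were close to each other, and the log2 fold change of -2.15 ± 0.39 from E16 to P16 (FDR = 0.00126) was -2.56 ± 0.27 with the covariate (FDR = 2.86e-06). miR-376c-3p was at 41.87 to 58.06 CPM at E16 and at 4.985, 0.8481 and 1.436 CPM at P16 (-4.36 ± 0.77, FDR = 0.0011; with the covariate -3.32 ± 0.38). Its P0 level was 57.11, 37.58 and 33.92 CPM in sets A and B and 8.373 CPM in the set C library. In the cochlea both had fallen already by P0.

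miR-381-3p, one of the most counted members in the SOC, fell by 12.1-fold from E16 to P16, and its level also differed between the sets. It was at 11840, 7364, 7088 and 7097 CPM at E16, 9334, 5974, 4911 and 1030 CPM at P0 and 1594, 243.4 and 227.4 CPM at P16. The P0 value of 1030 CPM and the P16 values below 250 CPM were those of set C. The log2 fold change from E16 to P16 was -3.60 ± 0.88 (FDR = 0.00648), or -2.54 ± 0.29 with the covariate (FDR = 5.51e-06) and -2.57 within set B. miR-495-3p followed a like pattern, at 338.4 to 823.1 CPM at E16, 63.73 CPM in the set C library and 307.6 to 693.7 CPM in the others at P0, and 171.5, 44.95 and 35.99 CPM at P16. Its log2 fold change of -2.73 ± 0.82 (FDR = 0.0185) shrank to -0.98 ± 0.25 with the covariate (FDR = 0.00483), and it was not called without P16 replicate 2 (FDR = 0.0703) or 3 (FDR = 0.0693). Lower in either fit were also, for example, miR-1193-3p (-3.26, with the covariate -2.74), miR-154-3p (-2.88 and -2.51) and miR-299a-3p (-1.84 and -1.93). miR-369-3p, at 173.5 to 241.6 CPM at E16 and 102.1, 60.32 and 62.02 CPM at P16, lost its call with the covariate (-0.53 ± 0.30, FDR = 0.152) and without E16 replicate 2 or 3 or P16 replicate 2 or 3 (FDR = 0.0587 to 0.113).

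Of the 6 most counted members of the SOC all but miR-381-3p were without a call at any age in the fit without the covariate. miR-410-3p was at 26470, 32370, 26790 and 23280 CPM at E16, 37350, 44670, 47460 and 14170 CPM at P0 and 28900, 16850 and 13060 CPM at P16, and its 3 lowest values were the 3 libraries of set C. miR-411-5p had its 3 highest values there, with 55200 CPM in P0 replicate 4 and 22630 and 26950 CPM at P16, against 5002 to 18520 CPM in the other 8 libraries. miR-541-5p was at 12850 to 24670 CPM at E16, 14090 to 20140 CPM at P0 and 9095 to 12070 CPM at P16, and was called lower at P16 with the covariate only (log2 fold change -0.85 ± 0.26, FDR = 0.0124). miR-409-3p, which fell in the cochlea, was at 3030 to 3733 CPM at E16 and 1764 to 2707 CPM at P16 without a call.

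From P0 to P16, 3 SOC members rose and 11 fell, against 8.07% of all miRNAs in each direction (16.1% either way). The 3 that rose were miR-666-3p (log2 fold change 2.24 ± 0.48, FDR = 0.01), miR-412-5p (1.31 ± 0.33, FDR = 0.0196) and miR-666-5p (1.28 ± 0.34, FDR = 0.0217). miR-376c-3p (-3.81 ± 0.75, FDR = 0.00651) and miR-376b-3p (-1.67 ± 0.38, FDR = 0.0129) were among those that fell. With the covariate 4 rose and 10 fell, against 10.4% and 10.5% of all miRNAs (20.9% either way). Set B alone, which sets 1 library against 1, called 0% of all miRNAs and so says nothing about the members. Leaving out set A gave 0 members, against 2.27%, and leaving out set C gave 6, against 11.9%. miR-666-3p and miR-376c-3p kept their calls with any library left out. miR-666-5p lost its call without P0 replicate 1 or 2 or P16 replicate 2 (FDR = 0.058, 0.0505 and 0.0855), miR-412-5p without P0 replicate 2 or P16 replicate 2 (FDR = 0.0512 and 0.057), and miR-376b-3p without P16 replicate 2 or 3 (FDR = 0.0594 and 0.0505). Without P0 replicate 4, or without P16 replicate 1, 24 members were called. Without P0 replicate 1 or 2 the count was 9 and 7, and without P16 replicate 2 or 3 it was 5 each. For these fits too the share of all miRNAs is not given, so the counts describe the members only.

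**Figure D4:**
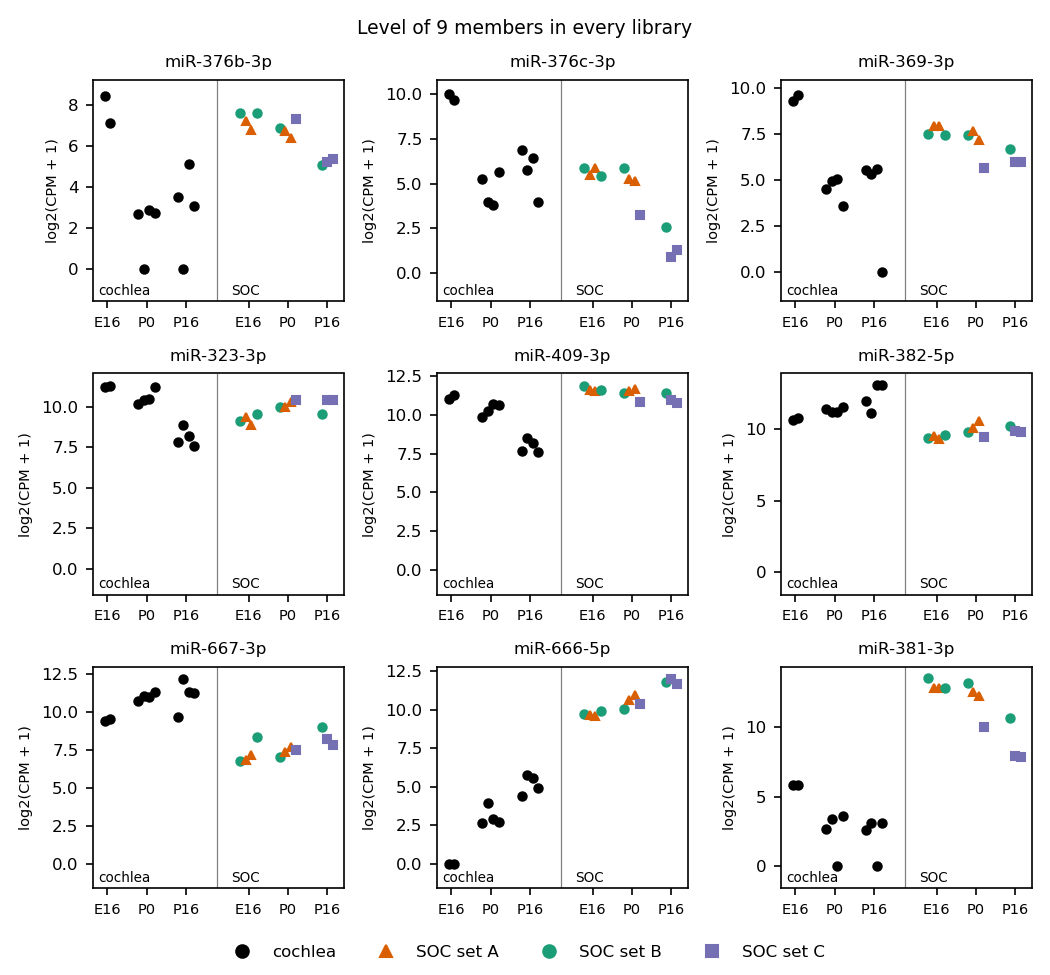
Level of 9 members in every library, as log2(CPM + 1) (y axis) by time point (x axis), cochlea left and SOC right of the line in each panel, with SOC points shaped by library set. miR-376b-3p, miR-376c-3p and miR-369-3p drop at P0 in the cochlea, miR-323-3p and miR-409-3p at P16, and in the SOC miR-666-5p rises from 759.1 to 964.1 CPM at E16 to at least 3306 CPM at P16.

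Marker levels in the SOC also moved with age. Oligodendrocyte markers were at no more than 435.5 CPM at E16, 173.6 to 434.3 CPM at P0 and 2573 to 7747 CPM at P16. Neuronal markers were at 38610 to 118800, 53610 to 111000 and 27010 to 44610 CPM, muscle markers at 139.6 to 346.4, 11.05 to 27.17 and 10.81 to 33.39 CPM, blood markers (4 in the table, none at 0) at 60.37 to 86.64, 36.19 to 146.3 and 101.4 to 199 CPM, and markers of mesenchyme and cartilage at 16700 to 25700, 13890 to 19350 and 18740 to 25480 CPM. Among the muscle markers miR-133a-3p was at 0 at E16. Epithelial and sensory markers are given above, with miR-200a-3p at 0 at P0. The part of all these markers in the changes of the cluster was not tested.

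Levels of the cluster also differed between the library sets. In a fit with age and set, 37 of the 62 members differed between sets C and B (13 higher and 24 lower in set C), against 54.9% of all miRNAs (27.4% higher and 27.5% lower). Lower in set C were miR-329-5p (log2 difference -7.78), miR-544-5p (-5.12), miR-543-3p (-3.69), miR-329-3p (-3.40), miR-381-3p (-2.89), miR-376c-3p (-2.33), miR-495-3p (-2.13) and miR-410-3p (-1.18). Higher were miR-411-5p (2.31), miR-134-3p (1.97), miR-299a-5p (1.89) and miR-380-3p (1.61). At P16, for example, miR-329-5p was at 123.7 CPM in the set B library and at 0.318 and 0.67 CPM in those of set C. Sets A and B differed in 10 members, or 16.1% (5 higher, 5 lower), against 7.2% and 9.65% of all miRNAs (16.9% either way). Among them, miR-409-5p was at 593.7 to 1452 CPM in the 4 set A libraries and 10.94 to 30.38 CPM in set B (log2 difference 5.83). Since set C holds 2 of the 3 P16 libraries and no E16 library, age and set overlap in part, and the covariate takes the change with age from comparisons within sets.

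**Figure D5:**
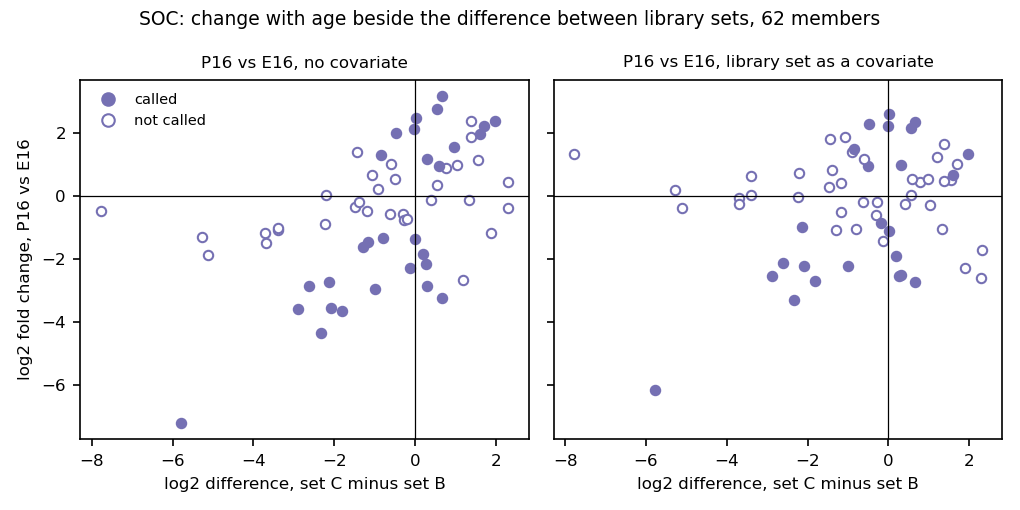
Log2 fold change from E16 to P16 in the SOC (y axis) against the log2 difference between sets C and B (x axis) for the 62 tested members, in the fit without the set (left) and in that with a term for it (right), filled where called. The called members number 29 on the left and 24 on the right, and members such as miR-495-3p, lower in set C, lie nearer 0 on the right.

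Whether the organs differed in their change with age was tested as an interaction over all 21 libraries, for the 57 members and the 545 miRNAs tested in both organs. From E16 to P0, 11 members had a more positive change in the SOC and none a more negative one, against 8.99% and 2.94% of all miRNAs (11.9% either way). The median difference, SOC minus cochlea, was 1.52 over the members and 0.52 over all. The members were miR-376b-3p (5.27 ± 0.93 on the log2 scale, FDR = 0.000567), miR-369-3p (4.21 ± 0.81, FDR = 0.00161), miR-376c-3p (4.44 ± 0.94, FDR = 0.00297), miR-380-3p, miR-487b-3p, miR-379-3p, miR-411-5p, miR-376a-3p, miR-380-5p, miR-495-3p and miR-154-3p. For miR-376b-3p the cochlear change was -5.68 and that of the SOC -0.49, and for miR-487b-3p they were -1.45 and 1.26. The cochlear change of miR-376b-3p rests on P0 libraries with no more than 3 counts each. Leaving out cochlea E16 replicate 2 or P0 replicate 2, or SOC E16 replicate 4 or P0 replicate 2, lost the interaction of miR-495-3p (FDR = 0.106, 0.0583, 0.0599 and 0.0601). When the set entered the model, 25 members differed (24 more positive in the SOC, 1 more negative), against 20.4% and 10.6% of all miRNAs (31% either way).

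From E16 to P16, 9 members had a more positive change in the SOC and miR-666-5p a more negative one, against 11% and 5.87% of all miRNAs (16.9% either way). miR-323-3p fell by 3.03 on the log2 scale in the cochlea and changed by 0.95 in the SOC (difference 3.86 ± 0.60, FDR = 0.000303). miR-487b-3p changed by -3.20 and 1.56 (4.63 ± 0.74, FDR = 0.000303), and miR-409-3p by -3.13 and -0.59 (2.38 ± 0.56, FDR = 0.0058). The others were miR-380-3p, miR-134-3p, miR-369-3p, miR-379-3p, miR-411-3p and miR-411-5p. The covariate gave 12 members (11 more positive, 1 more negative), against 12.8% and 10.5% of all miRNAs (23.3% either way), and there miR-411-5p was not called (1.14, FDR = 0.251). Its call was also lost with any of 10 libraries left out. Without cochlea E16 replicate 2 the interactions of miR-134-3p (FDR = 0.058), miR-369-3p (FDR = 0.0621) and miR-666-5p (FDR = 0.119) were not called either, and 4 members were left. Organ, strain and kits coincide and cannot be told apart, although the kits were the same at all ages of an organ.

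Each hairpin gives a 5p and a 3p strand, and the strand with more counts was mostly the same in both organs. Of 31 hairpins with at least 20 counts in each organ, the 3p arm led in both for 18 and the 5p arm in both for 12. Mir299a was counted among the 12 by a narrow margin, since its 5p arm took 50.3% of its SOC counts (26.9 to 74.7% by library, 45.6% at E16), so that its place depends on the libraries pooled. The remaining hairpin was Mir485, whose 5p arm took 90.04% of its counts in the SOC (70.5 to 99.1% by library) and 44.8% in the cochlea (12 to 89.5% by library). These ranges overlap, the library kits differ between the organs, and the difference was not tested. In the cochlea that share was 25.9% at E16, 32.7% at P0 and 77.0% at P16. For Mir369 the 5p share in the SOC was 56.6% at E16, 77.8% at P0 and 87.0% at P16. It also differed between the sets there, at 49.8% in set A, 73.0% in set B and 92.9% in set C. In the cochlea the Mir369 5p share was 59.2%, 95.8% and 91.9% at these ages, so the 2 arms of that hairpin did not change equally in that organ. miR-369-5p, for example, was at 876.8 and 1144 CPM in the cochlea at E16 and at 417.4 to 603.9 CPM at P0, a far smaller step than that of its partner strand. For Mir409 in the SOC the 5p share followed the sets, at 25.5% in set A, 0.634% in set B and 3.34% in set C.

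Other miRNAs of the imprinted domain were counted for comparison. In the cochlea, of 11 tested miRNAs on the Meg3 side 3 were lower and 1 higher than at E16, both at P0 and at P16, and the same counts held for 11 tested miRNAs antisense to Rtl1. miR-337-3p (log2 fold change -3.27 at P0, -3.28 at P16) and miR-770-3p (2.38 and 2.41) are examples of the first list, and miR-136-3p (-3.51 and -2.33) and miR-433-3p (1.51 and 2.04) of the second. Neither of 2 further miRNAs of the locus was called there. Of all tested miRNAs, 24.4% were called either way at P0 and 29.6% at P16. In the SOC at P16, 2 of 10 on the Meg3 side rose and 2 fell against E16, 3 of 12 antisense to Rtl1 rose and 1 fell, and 2 of 3 further miRNAs rose (miR-1188-5p, 3.87, and miR-1197-3p, 2.32), against 41.2% of all miRNAs called either way. At P0 in the SOC 1 rose and 1 fell on the Meg3 side and none was called in the other lists, where edgeR's background was 6.63%.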

How the data were processed

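The authors deposited 1 table of raw read counts per mature miRNA for all 21 libraries. They trimmed adapters and aligned reads to a mouse miRNA reference, and the submitters' processing notes name mm10, Bowtie2 2.2.5 and DESeq2. No column lacked a sample. Totals ran from 124400 to 18053698 counts. Groups were taken from organ and age in the labels. Values were scaled by TMM within an organ (CPM) and tested with edgeR 4.0.16 (R 4.3.3, quasi-likelihood F test, Benjamini-Hochberg adjustment over all miRNAs tested) on miRNAs that exceeded 1 CPM in 2 or more libraries of the same age. In the cochlea a single count was worth over 1 CPM, so 1 count in 2 such libraries was enough. The cochlear shares, of members and of all miRNAs alike, thus include rows with very few counts. Some rows passed through a single age, which by itself favours a change away from that age. The fit was tested on simulated data. P-values measure the spread between these pooled samples, which may be partly technical. The SOC set covariate was added to the same model. Log2 differences within a set used a pseudocount of 0.1 CPM. Shares were compared by exact permutation in SciPy 1.17.1.

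Members, lists and library sets were chosen with earlier results of these data known. The rule for values by library took the 6 members of highest mean CPM in an organ, the largest called changes (up to 4 in each direction from E16 to P16 and 2 in the other contrasts, at 50 CPM or more), up to 4 interactions, and miR-381-3p, miR-134-5p, miR-485-5p, miR-329-3p and miR-379-5p. Members named besides these were chosen after their values were seen. Of the members under the rule, miR-300-3p, miR-494-3p and miR-1193-3p are not given over the ages. Others are given as ranges, in part or in a single organ. Alternatives were DESeq2 1.42.0, other scalings and filters, a fold change over 2, all 21 libraries in 1 fit, SOC counts thinned to the cochlea depth, each library left out, the set covariate, set B alone and, chosen after seeing the data, leaving out set A or set C. Same-numbered SOC libraries of E16 and P0 deviated together from their group means (r = 0.518, 0.417, 0.314 and 0.262), which pairs them by a minimum of 0.1. Libraries of different number did so too, P0 replicate 2 with E16 replicate 3 (r = 0.486) and P0 replicate 3 with E16 replicate 2 (r = 0.326). Replicates 2 and 3 of both ages are those of set A, so the pairing does not follow the number alone. No other contrast paired. Sequences came from RefSeq GRCm38.p6 and gene positions from GENCODE on GRCm38, the build the notes call mm10.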

Additional observations from a re-analysis of the deposited data

Results flagged for a closer look

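Of 108 groups of 4 libraries tested, 11 held a value far from the other 3, where chance gives about 1 in 20. In the cochlea at P0, miR-376b-3p was at 0 CPM in replicate 2 against 5.348 to 6.421 in the others, miR-494-3p at 6.421 CPM in replicate 3 and miR-666-3p at 5.348 CPM in replicate 1 against 0 elsewhere, and miR-666-5p at 14.61 CPM in replicate 2 against 5.348 to 6.421. All 4 of these values are at or under 3 counts in a library. At P16, miR-369-3p was at 0 CPM in replicate 4 against 38.91 to 46.47, miR-494-3p at 10.2 CPM in replicate 1 against 0, and miR-541-5p at 451.4 CPM in replicate 3 against 200.7 to 217.9. In the SOC at E16, miR-323-5p (15.98 against 3.927 to 5.246 CPM) and miR-667-3p (329.3 against 109.8 to 145.6 CPM) were high in replicate 4, and miR-381-3p (11840 against 7088 to 7364 CPM) was high in replicate 1. In the SOC at P0, miR-411-5p was at 55200 CPM in replicate 4, the only set C library of that age, against 6677 to 12060.

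The change with age differed between the organs in 21 results by the interaction test. As SOC minus cochlea on the log2 scale, the differences from E16 to P0 were 5.27 for miR-376b-3p, 4.21 for miR-369-3p, 4.44 for miR-376c-3p, 4.69 for miR-380-3p, 2.61 for miR-487b-3p, 4.23 for both miR-411-5p and miR-376a-3p, 4.93 for miR-380-5p and 3.09 for miR-495-3p. Those of miR-379-3p (8.13) and miR-154-3p (7.58) rest on cochlear P0 libraries without a count and depend on the prior count. For miR-376b-3p, miR-376a-3p and miR-380-5p no cochlear P0 library held more than 3 counts, so the size of their differences is uncertain too. From E16 to P16 they were 3.86 for miR-323-3p, 4.63 for miR-487b-3p, 5.24 for miR-380-3p, 2.38 for miR-409-3p, 4.57 for miR-134-3p, 2.75 for miR-369-3p, 4.48 for miR-379-3p, 3.31 for miR-411-3p and 3.403 for miR-411-5p. miR-666-5p, with no cochlear count at E16, had -6.66. At P16 miR-379-3p, miR-411-3p and miR-134-3p had 3 counts or fewer in every cochlear library, which leaves the size of their differences uncertain.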

How the results depend on the processing

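No named change reversed its direction under any alternative run. Of 70 called values of named members, 31 stayed called under every alternative in which the member was tested (20 of 37 in the cochlea, 4 of 20 in the SOC and 7 of 13 interactions), and the SOC 4 were miR-376b-3p, miR-376c-3p, miR-666-3p and miR-666-5p from E16 to P16. An alternative whose filter removed a member was not counted for it. Requiring 10 counts in every library, for example, removed miR-376c-3p in both organs. Counts of members called moved by over 1.5 times as follows. Where no share of all miRNAs is given above for an alternative, its count describes the members only. In the cochlea, requiring 10 counts in every library left 2 called of 10 tested at P0 against E16 (23 before) and 8 at P16 (27 before), and dropping the criterion of no overlap gave 5 from P0 to P16 (3 before). In the SOC from E16 to P0 (0 before), DESeq2 gave 4, library totals 1, TMM without the imprinted locus 1, the set covariate 3 and leaving out set C 5. From E16 to P16 (29 before), set B alone gave 8, thinned counts 15, leaving out set A 7 and leaving out set C 18. From P0 to P16 (14 before), no filter gave 9, all 21 libraries in 1 fit 8, set B alone 0 (1 library against 1, which says nothing about stability), thinned counts 2, leaving out set A 0 and leaving out set C 6. Interactions from E16 to P0 (11 before) were 21 with DESeq2, 24 with library totals, 3 with 10 counts in every library and 25 with the covariate. From E16 to P16 (10 before) they were 16 with library totals, 6 with TMM without the locus, 4 with 10 counts and 6 with thinned counts. The cause of these moves was not tested, apart from the fewer libraries or miRNAs that some alternatives hold. With each library left out in turn, the counts ran from 9 to 29, 18 to 29 and 3 to 6 in the cochlea (P0 and P16 against E16, P16 against P0), 0 to 2, 20 to 37 and 5 to 24 in the SOC, and 9 to 17 and 4 to 15 for the interactions. Libraries that moved a count by over 1.5 times and are not named above were cochlea P16 replicate 2 (6 from P0 to P16), SOC E16 replicate 4 (2 from E16 to P0), SOC P0 replicates 1 and 4 and P16 replicate 1 (1 each), SOC P16 replicate 1 for the first interaction (17) and cochlea E16 replicate 2 for the second (4). In the cochlea, 3 counts were worth up to 23.3 CPM, which limits members under that level.

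With the replicate number as a block, 14 members were called in the cochlea at P0 against E16 (23 before), 23 at P16 and 3 from P0 to P16. The SOC counts were 0, 30 and 15, and the interactions 9 and 10. By the minimum of 0.1 the numbers paired only SOC E16 and P0, where the block changed no count.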
